A study of Mus musculus with 9 samples.

Results

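The mouse mitochondrial genome carries 37 annotated genes, 13 for proteins, 22 for transfer RNAs (tRNAs) and 2 for ribosomal RNAs (rRNAs). They were chosen as every gene that the deposited table placed on chromosome MT, 37 of 54532 genes in all, and the 3 kinds are described apart. RNA of tibialis anterior, a muscle of the hind limb, was sequenced after the muscle had been injured, with 3 libraries per group. The groups were wild-type young mice (4 to 6 months), wild-type old mice (24 months) and old P311-/- mice, which lack the gene for P311 (symbol Nrep). Both old groups share advanced age, and all 9 libraries come from injured muscle, so no group here shows uninjured tissue. What injured the muscle, how long afterwards it was taken, the strain of the mice, the exact age of the P311-/- mice, how the deletion was made and whether each library is a separate animal are not stated in the labels. The p-values therefore measure the spread between these libraries.

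Mitochondrial genes are transcribed as long precursors from both strands of a small circular genome. In the precursor, tRNAs lie between most of the protein and rRNA genes, and cutting them out releases the messenger and ribosomal RNAs. The 13 proteins are core subunits of respiratory complexes I, III and IV and of the ATP synthase (complex V), which also hold many subunits encoded in the nucleus. The tRNAs and rRNAs serve the separate ribosomes that make these proteins. Muscle fibres hold many mitochondria, and RNA of this genome is abundant in them. The libraries were made from poly(A) RNA, and mature mitochondrial tRNAs carry no poly(A) tail. Whether reads on a tRNA gene came from mature tRNAs or from longer precursors was not tested.

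Reads recovered from the deposited values numbered 14222204 to 31910890 per library. Levels are in FPKM, reads scaled by gene length and library size, and 3 values in a row belong to replicates 1, 2 and 3 of a group. Nrep, the deleted gene, stood at 63.9 to 86.3 FPKM in young and 71.4 to 83.1 FPKM in old wild type, and at 6.37 to 14.8 FPKM in P311-/- libraries. P311-/- replicate 1 stood apart from the other P311-/- libraries, at -11.2 on the first principal component against 52.3 and 37.9. Markers of mature muscle fibres, 16 genes, summed to 52108 to 55638 FPKM in young, 58376 to 70036 FPKM in old wild-type and 57755 to 74660 FPKM in P311-/- libraries. The 12 macrophage markers summed to 1551 to 2393, 1251 to 1843 and 725 to 1683 FPKM in the same order. The 10 fibroblast markers summed to 2093 to 2188, 1440 to 1882 and 1196 to 1703 FPKM. Taken singly, 9 of the 16 fibre markers had a higher fitted level in old than in young wild type, and 7 a lower one. Of the macrophage markers 12 of 12 were lower, and of the fibroblast markers 8 of 10. No listed marker was at 0 in all libraries. The part of these cell types in the results that follow was not tested. In bulk muscle, fewer cells of a type and less RNA per cell cannot be told apart.

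Mitochondrial genes took a larger share of the reads in old than in young wild-type muscle. Young wild-type libraries had 8.79% to 10.7%, old wild-type libraries 13.2% to 17.6% and P311-/- libraries 9.47% to 14.1%, with a 95% exact binomial interval no wider than 0.0354 percentage points in any library, which covers counting error only. Young and old wild-type ranges did not overlap, while the P311-/- range overlapped both. The protein genes held nearly all of it, at 8.43% to 10.3%, 12.6% to 16.4% and 9.09% to 13.7% of reads in the 3 groups. The 2 rRNA genes held 0.323% to 0.395%, 0.503% to 0.977% and 0.229% to 0.325%. The 22 tRNA genes held 0.0259% to 0.0343%, 0.0650% to 0.142% and 0.0303% to 0.0574%. For rRNA and tRNA genes, the old wild-type libraries lay above all other libraries.

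**Figure D1:**
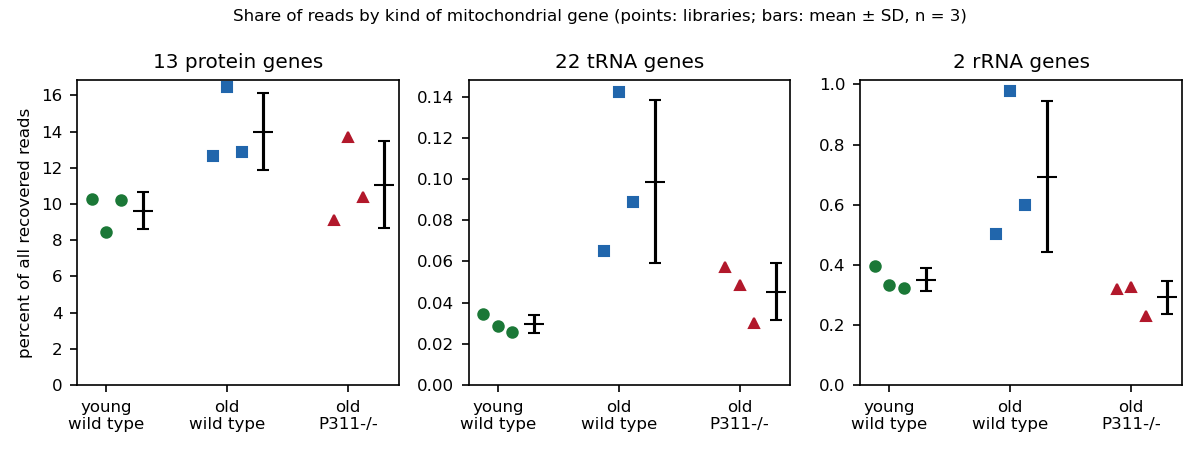
Share of all recovered reads (percent, linear axes from 0) on the 13 protein, 22 tRNA and 2 rRNA genes of the mitochondrial genome; points are libraries and bars are mean ± SD of 3 libraries. For tRNA and rRNA genes all 3 old wild-type libraries lie above the other 6, and for protein genes old wild type lies above young wild type while P311-/- overlaps both.

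In reads assigned to each gene, the protein genes differed in level by more than the groups did, although all come from shared precursors. mt-Co1, the catalytic core of complex IV, was the most abundant at 21980.1 ± 2565 FPKM (SD, n = 3) in young wild type, 32378 ± 5843 in old wild type and 25743 ± 7724 in P311-/-. mt-Cytb of complex III followed, then mt-Nd1 and mt-Nd2 of complex I, each above the next in 9 of 9 libraries. mt-Nd2, mt-Nd4 and mt-Nd6 could not be separated, since each kept its place above the next in only 5 of 9 libraries. mt-Nd5 lay below mt-Nd6 in 9 of 9 libraries and above mt-Atp6 in 9 of 9, but above mt-Nd2 and mt-Nd4 in young replicates 1 and 3. The order of mt-Atp6, mt-Co3 and mt-Co2 changed between libraries. mt-Nd4l and mt-Nd3 were lower again and not separable (5 of 9 libraries), and mt-Atp8, a small subunit of the ATP synthase, was lowest, with 10.8 ± 7.40 FPKM in young wild type. Together mt-Co1, mt-Cytb, mt-Nd1, mt-Nd2, mt-Nd4 and mt-Nd5 took 87.0% to 93.1% of all mitochondrial reads.

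The genes overlap and differ in length, which bears on these levels. Some genes also have nearly identical copies on chromosome 1, described below, and the part of these copies in the levels was not tested. The 5 genes copied over nearly their whole length, mt-Co2, mt-Atp6, mt-Co3, mt-Nd3 and mt-Nd4l, had group means of 41.5 to 2172 FPKM. mt-Co1 and mt-Nd4, copied there in part, had 5952 to 32378 FPKM. The 6 protein genes with no copy matched there over more than a shared end had 10.8 to 21883 FPKM, with mt-Atp8 lowest. Whether reads matching both places were left out was not tested, so the order of levels need not be that of RNA amounts. mt-Atp8 and mt-Atp6 share 43 bases, mt-Nd5 and mt-Nd6 share 14, and mt-Nd4l and mt-Nd4 share 7. The protein genes span 204 to 1824 bases and the tRNA genes 59 to 75, so that 3 reads on a tRNA gene already equal 1.32 to 3.36 FPKM. On the minus strand lie mt-Nd6 and 8 tRNA genes, and the other 28 genes lie on the plus strand. No source used here gives the use of strand in counting, so that reads of either strand may be counted to a gene.

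**Figure D2:**
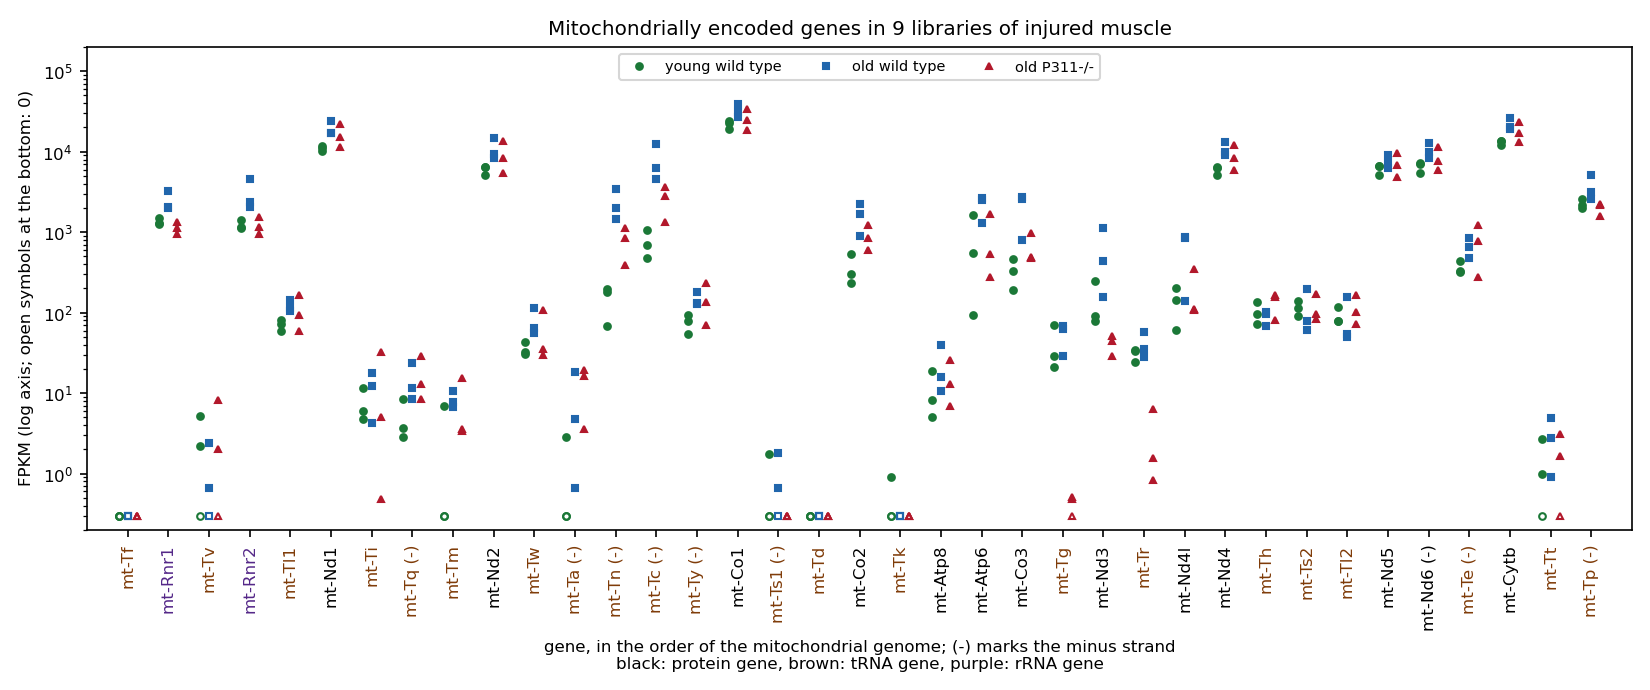
FPKM (log axis) of all 37 mitochondrial genes in genome order, with 1 symbol per library and open symbols at the bottom for 0; (-) marks genes of the minus strand. Protein genes span from about mt-Atp8 at the bottom to mt-Co1 at the top, and the tRNA genes lie partly within that span and partly below it. The genes mt-Tg, mt-Nd3 and mt-Tr show P311-/- symbols below all the others.

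Ageing was addressed by comparing old with young wild-type muscle. Of the 37 genes, 31 had enough reads to be tested (13 protein, 2 rRNA and 16 tRNA genes), and 5 of these 31 rose in old wild type while 0 fell. Among all 14233 genes tested, 3.39% rose, 2.01% fell and 5.4% were called in either direction. The rising genes were the tRNA genes mt-Tn and mt-Tc, the complex IV subunit genes mt-Co2 and mt-Co3, and mt-Rnr2, the RNA of the large ribosomal subunit. For 17 of the 31, every old library lay above every young one, against 19% of all genes tested, and for 0 every old library lay below, against 18.1%. An unadjusted p under 0.05 was found for 22 of the 31, against 26.3% of all genes tested.

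mt-Co2 encodes the complex IV subunit that takes electrons from cytochrome c. It stood at 537, 231 and 305 FPKM in young and 887, 2247 and 1691 FPKM in old wild type. The groups did not overlap, and the log2 fold change was 2.16 (SE 0.41, adjusted p = 0.0308). mt-Co3, another core subunit of complex IV, stood at 459, 334 and 190.4 FPKM in young and 803, 2755 and 2591 FPKM in old wild type. Old replicate 1 was the lowest of its group and still above all young libraries, and the log2 fold change was 2.54 (SE 0.51, adjusted p = 0.0331). mt-Co1, the most abundant of the 3 complex IV genes, had a log2 fold change of 0.55 (SE 0.24, adjusted p = 0.185) and did not pass.

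The other protein genes did not pass the test, and their estimates lay above 0. All 13 had log2 fold changes between 0.30 and 2.54, with a median of 0.83 against 0.00 for all genes tested. mt-Cytb stood at 13760.0, 12054 and 13431 FPKM in young and 20015, 26394 and 19241 FPKM in old wild type. Its groups did not overlap, with a log2 fold change of 0.73 (SE 0.23, adjusted p = 0.0852). mt-Nd1, a membrane subunit of complex I, had 0.81 (SE 0.25, adjusted p = 0.0811), and mt-Nd5, its largest mitochondrial subunit, had 0.30 (SE 0.26, adjusted p = 0.493). mt-Atp6, the proton channel subunit of the ATP synthase, had a larger but less certain estimate of 2.24 (SE 0.96, adjusted p = 0.175), and its levels ran from 92.2 to 1643 FPKM within young wild type alone. When a trend with gene length and GC content was removed from each library, the median of the 13 dropped to 0.09, and mt-Co1, mt-Nd5 and mt-Nd6 lay below 0, while no other alternative put any of the 13 below 0. With that trend removed, the calls of mt-Co2 (1.45, adjusted p = 0.105), mt-Co3 (1.85, adjusted p = 0.125) and mt-Rnr2 (0.49, adjusted p = 0.360) were lost, and those of mt-Tn and mt-Tc held.

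mt-Rnr2 was at 1425, 1165 and 1133 FPKM in young and 2079, 4632 and 2367 FPKM in old wild type. Every old library lay above every young one, and the log2 fold change of 1.20 (SE 0.30, adjusted p = 0.0499) was just inside the threshold. mt-Rnr1, the RNA of the small ribosomal subunit, stood at 1521, 1315 and 1248 and 2022, 3276 and 2077 FPKM. Its groups did not overlap either, and its log2 fold change was 0.82 (SE 0.21, adjusted p = 0.0556).

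The 2 tRNA genes that rose lie on the minus strand, on either side of the origin of light-strand replication. They are mt-Tn, for asparagine (MT 5089 to 5159, GRCm38), and mt-Tc, for cysteine (MT 5192 to 5257). Their sequences are shown 5′ to 3′ because these are the tRNA genes called in this comparison, with the anticodon in capitals, from the GENCODE M21 transcripts on GRCm38.
mt-Tn: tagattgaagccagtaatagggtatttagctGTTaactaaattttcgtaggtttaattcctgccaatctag
mt-Tc: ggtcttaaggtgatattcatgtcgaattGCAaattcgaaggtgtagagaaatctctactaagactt
mt-Tn stood at 194, 182 and 69.1 FPKM in young and 1465, 3395 and 1989 FPKM in old wild type, with a log2 fold change of 3.99 (SE 0.50, adjusted p = 0.0246). mt-Tc stood at 1063, 692 and 477 FPKM in young and 4521, 12394 and 6291 FPKM in old wild type, with a log2 fold change of 3.32 (SE 0.46, adjusted p = 0.0287). For both, the lowest old library lay several-fold above the highest young one, with at least 97 reads on mt-Tn and 622 on mt-Tc in any library.

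mt-Tp, the proline tRNA gene beside the control region and also on the minus strand, was among the most abundant tRNA rows, at 2609.5, 2001 and 2200.1 FPKM in young and 2552, 5187 and 3189 FPKM in old wild type. Those groups overlapped, and the log2 fold change was 0.63 (SE 0.26, adjusted p = 0.166). Together mt-Tc, mt-Tn and mt-Tp took 72.2% to 80.4% of tRNA reads in young wild type. They took 84.9% to 92.5% in old wild type, above all young libraries, and 69.3% to 90.7% in P311-/-. All 8 minus-strand tRNA genes took 86.3% to 89.0%, 95.6% to 96.2% and 89.6% to 95.5% in the same order.

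The remaining tested tRNA genes showed no change that passed. mt-Te (glutamate) ran from 318 to 442 FPKM in young to 480.5 to 857 in old wild type, and mt-Ty (tyrosine) from 53.6 to 94.7 to 128 to 179.6. mt-Tl1 (leucine) and mt-Tw (tryptophan) also had every old library above every young one, at 59.8 to 81.0 and 30.4 to 43.4 FPKM in young against 106 to 142 and 55.6 to 115 in old. mt-Th, mt-Ts2 and mt-Tl2 (histidine, serine and leucine), which lie side by side, overlapped between the groups, at 73.3 to 137, 90.9 to 138 and 78.4 to 116 FPKM in young against 68.1 to 101, 60.2 to 198 and 49.5 to 155 in old. mt-Tm (methionine) and mt-Ta (alanine) had 0 reads in 2 of 3 young libraries and at most 8 and 3 in the other, so no fold is given for them. mt-Ti (isoleucine) and mt-Tq (glutamine) had 5, 7 and 16 and 4, 10 and 4 reads in young and 27, 14 and 7 and 13, 28 and 20 in old wild type, too few to read an order from.

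6 tRNA genes had too few reads to be tested. mt-Tf (phenylalanine) and mt-Td (aspartate) were at 0 in all 9 libraries, which at 3 reads limits them to the 1.32 to 3.36 FPKM above. mt-Tk (lysine) had 1 read, in young replicate 2. mt-Ts1 (serine), mt-Tt (threonine) and mt-Tv (valine) had 6, 25 and 28 reads over all libraries, with no group separate from the others. Of these genes, mt-Td, mt-Tk and mt-Ts1 lie between protein genes with chromosome 1 copies, described below.

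The age calls depended on single libraries. Of the 5, mt-Tn alone was still called without young replicate 1, and 0 were called without young replicate 2 or 3 or without old wild-type replicate 2 or 3. Over all genes tested, calls in these fits fell to 14, 1, 0, 0 and 10 in the same order. The loss was thus not particular to mitochondrial genes. Without young replicate 2 the 1 gene called was mt-Tm, for which no fold is given above. Without old wild-type replicate 1, 7 mitochondrial genes were called, the 5 among them, with 559 calls over all genes tested against 768 in the main fit. Without P311-/- replicate 1, 2 or 3, which enter through the shared spread, there were 10, 10 and 4 calls, with 1755, 934 and 435 over all genes. The median of the protein genes stayed between 0.65 and 0.97 in all 9 of these fits.

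**Figure D3:**
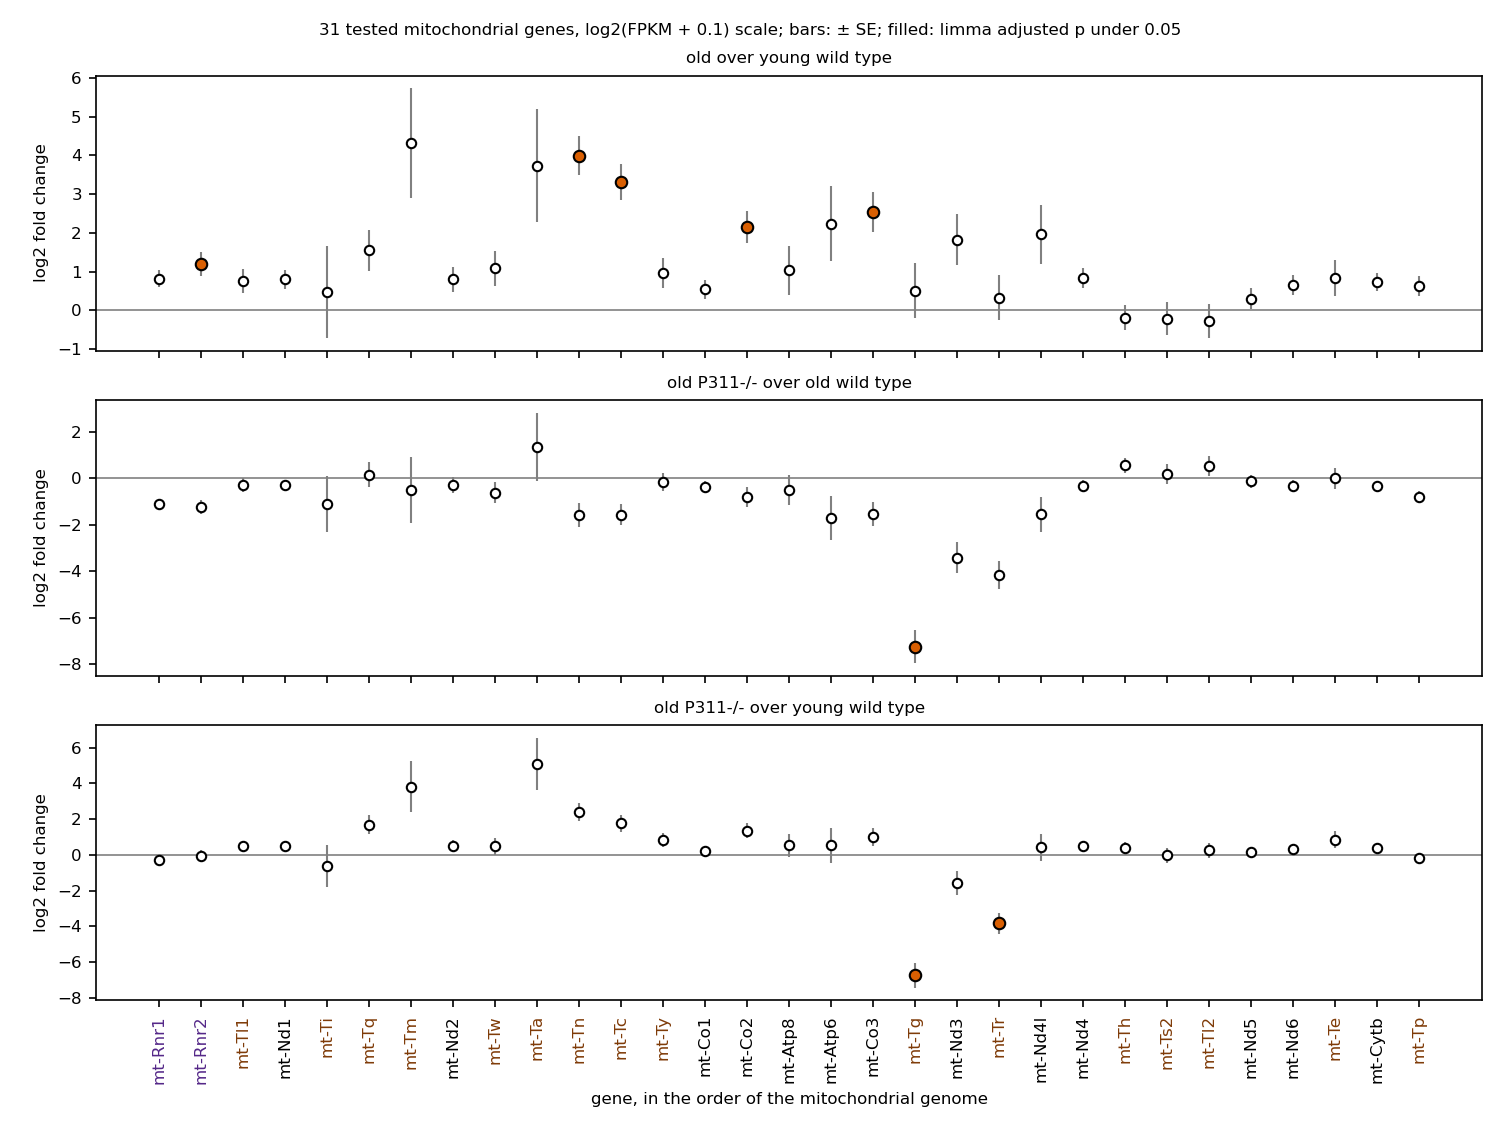
Log2 fold changes (log2 of FPKM + 0.1) of the 31 tested mitochondrial genes in genome order for the 3 comparisons, with bars of ± SE and filled points at a limma adjusted p under 0.05. Old over young wild type has 5 filled points, all above 0, and mt-Tg is filled below 0 in both P311-/- comparisons, with mt-Tr filled in the comparison with young.

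The effect of P311 loss in old muscle was addressed by comparing old P311-/- with old wild type. Of the 31 tested mitochondrial genes, 1 fell, mt-Tg, and 0 rose, where 0.0562% of all genes tested fell, 0.0141% rose and 0.0703% were called in either direction. For 8 of the 31 every P311-/- library lay below every old wild-type one, against 9.39% of all genes tested, and for 0 every library lay above, against 8.64%. An unadjusted p under 0.05 was found for 9 of the 31, against 16.1% of all genes tested.

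The largest differences lay in 3 neighbouring genes of the plus strand, between mt-Co3 and mt-Nd4l. These are mt-Tg, the glycine tRNA gene (MT 9391 to 9458, GRCm38), mt-Nd3, a core subunit of complex I (MT 9459 to 9806), and mt-Tr, the arginine tRNA gene (MT 9808 to 9875). The 2 tRNA genes are shown 5′ to 3′ with the anticodon in capitals, from the GENCODE M21 transcripts on GRCm38.
mt-Tg: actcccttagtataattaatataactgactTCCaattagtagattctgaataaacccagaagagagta
mt-Tr: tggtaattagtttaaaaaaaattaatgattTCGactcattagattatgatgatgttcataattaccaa
mt-Tg stood at 21.4, 70.4 and 29.0 FPKM in young wild type, 29.1, 68.3 and 63.3 in old wild type and 0.516, 0 and 0.487 in P311-/-. These values rest on 22, 80 and 39 reads, 43, 77 and 104 reads and 1, 0 and 1 reads. The P311-/- libraries were thus at or next to 0, while no wild-type library had fewer than 22 reads. A level here counts the reads that the authors' alignment assigned to the gene, and whether the P311-/- and wild-type mice carry the same mitochondrial sequence (haplotype) was not tested.

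With reads summed per group, mt-Tg in P311-/- had 2 reads against 224 in old wild type, a ratio of 0.00728 after scaling, with a 95% counting interval of 0.000876 to 0.0266. The fitted log2 fold change was -7.25 (SE 0.70, adjusted p = 0.00516), a value that depends on the pseudocount because P311-/- libraries are at 0 or 1 read. The call was lost without old wild-type replicate 2 (-7.03, adjusted p = 0.0528) and with voom on recovered reads (-6.34, adjusted p = 0.0785). It was also lost with the replicate number as a block (-7.25, adjusted p = 0.0524), and the direction held in all alternatives run for this gene.

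mt-Tr stood at 24.3, 34.3 and 33.5 FPKM in young wild type, 27.8, 56.8 and 35.3 in old wild type and 1.55, 0.823 and 6.33 in P311-/-. The highest P311-/- library lay below the lowest wild-type one. Summed reads were 17 in P311-/- against 163 in old wild type, a scaled ratio of 0.0850 (95% counting interval 0.0483 to 0.140). The log2 fold change against old wild type was -4.16 (SE 0.59, adjusted p = 0.0521), which did not pass, and it passed without P311-/- replicate 1 (-3.98, adjusted p = 0.0209), without P311-/- replicate 3 (-4.96, adjusted p = 0.00163), with a pseudocount of 1 FPKM (-3.60, adjusted p = 0.0290) and with library quality weights (-3.03, adjusted p = 0.00200). Among all 14233 genes tested, 10 were called in the main fit, 1875 without P311-/- replicate 1 and 4211 with library quality weights. Passing in the last 2 settings, here and below, is to be read beside these counts. The library quality weights were 0.213, 0.683 and 2.88 for P311-/- replicates 1, 2 and 3, so replicate 3 counted most in that fit.

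mt-Nd3 stood at 78.9, 92.0 and 245 FPKM in young wild type, 158, 441 and 1141 in old wild type and 44.5, 51.3 and 28.8 in P311-/-. The 3 P311-/- libraries lay below all 6 wild-type libraries. The spread among wild-type libraries was wide, and the log2 fold change against old wild type was -3.41 (SE 0.66, adjusted p = 0.212). It passed without P311-/- replicate 1 (-3.48, adjusted p = 0.0420) and with library quality weights (-3.82, adjusted p = 0.0182).

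**Figure D4:**
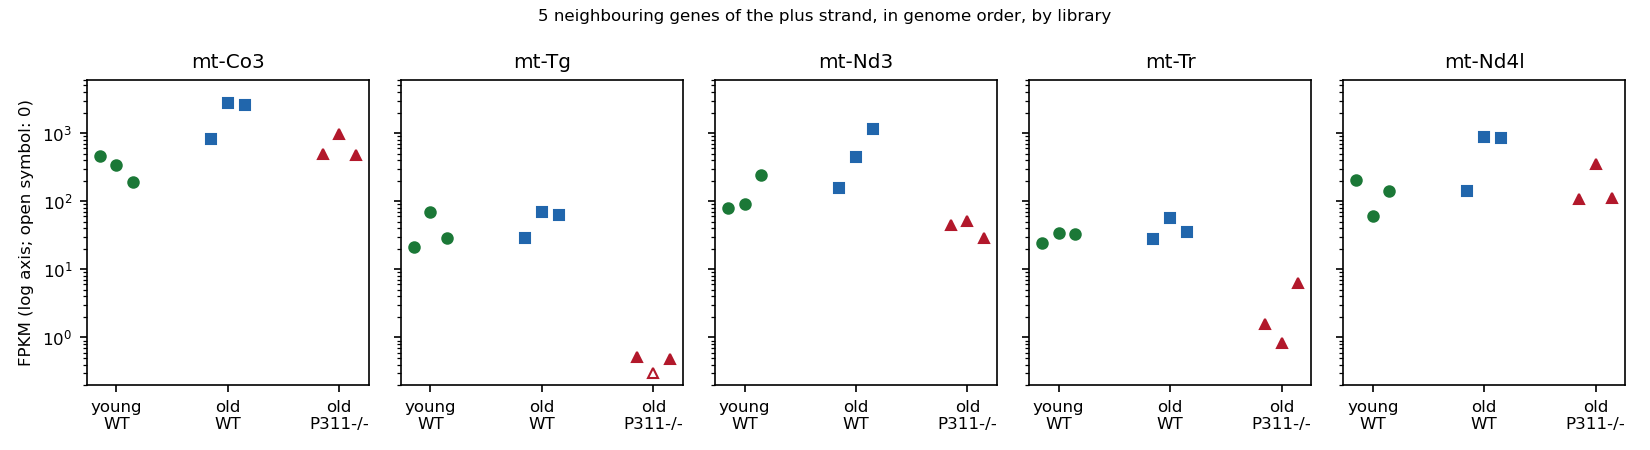
FPKM (log axis) by library of 5 neighbouring plus-strand genes in genome order, mt-Co3, mt-Tg, mt-Nd3, mt-Tr and mt-Nd4l; an open symbol at the bottom marks 0. In mt-Tg, mt-Nd3 and mt-Tr all P311-/- symbols lie below all wild-type symbols, while in mt-Co3 and mt-Nd4l they overlap the old wild-type symbols.

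The genes on either side overlapped between P311-/- and old wild type. mt-Co3, upstream, stood at 495, 977 and 482 FPKM in P311-/-, above every young wild-type library, with a log2 fold change against old wild type of -1.54 (SE 0.51, adjusted p = 0.258). mt-Nd4l, downstream, another complex I subunit gene, stood at 204, 60.2 and 142 FPKM in young wild type, 139, 884 and 854 in old wild type and 108, 349.8 and 111 in P311-/-. Its groups overlapped, with a log2 fold change of -1.54 (SE 0.76, adjusted p = 0.344).

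This stretch of the mitochondrial genome has a nearly identical copy in the nucleus. On chromosome 1, 7 annotated pseudogenes lie in a row between 24611535 and 24616197 (GRCm38, minus strand) and match parts of mt-Co1, mt-Co2, mt-Atp6, mt-Co3, mt-Nd3, mt-Nd4l and mt-Nd4. Gm28661, Gm10925, Gm28437 and Gm10222 are identical to mt-Co2, mt-Atp6, mt-Co3 and mt-Nd4l over the aligned bases, and Gm28439 to the first 876 bases of mt-Nd4. Gm29216 matches the end of mt-Co1 with 1 difference, and Gm28438 matches mt-Nd3 over 345 bases with 1 difference, an identity of 99.7%. Reads from identical stretches match both places, and the authors' treatment of reads with several matches is not stated in the labels.

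The single difference between mt-Nd3 and Gm28438 is T3C, with the base of mt-Nd3 first and positions counted from 1 at its 5′ end, which is mitochondrial position 9461. The first 60 bases of both are shown 5′ to 3′ because reads on this gene were divided between the rows, with the differing base in capitals, from the GENCODE M21 transcripts on GRCm38.
mt-Nd3: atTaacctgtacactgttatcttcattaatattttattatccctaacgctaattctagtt
Gm28438: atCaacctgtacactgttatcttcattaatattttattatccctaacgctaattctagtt
Next to it on chromosome 1, the gaps at the places of the tRNA genes hold 69 bases between Gm28438 and Gm28437, where mt-Tg has 68, and 74 bases between Gm10222 and Gm28438, where mt-Tr has 68. Gm28437 stops at base 783 of the 784 of mt-Co3, and Gm28438 at base 345 of the 348 of mt-Nd3. The gaps therefore also hold the places of such end bases, and their sizes are not lengths of tRNA copies. On either side of Gm28661 the gaps hold 233 bases at the places of mt-Tk and mt-Atp8 and 140 at those of mt-Ts1 and mt-Td. The sequence of none of these gaps was compared, since only transcripts were at hand.

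The level of Gm28438 was high in the P311-/- libraries, in which mt-Nd3 was low. It stood at 19.9, 13.4 and 15.7 FPKM in young wild type, 53.3, 138 and 102 in old wild type and 127, 244 and 169.9 in P311-/-. The young libraries were lowest, and the P311-/- libraries overlapped the old wild-type ones only through replicate 1. The log2 fold change was 2.49 (SE 0.35, adjusted p = 0.0287) for old over young wild type, 0.94 (SE 0.35, adjusted p = 0.269) for P311-/- over old wild type and 3.43 (SE 0.35, adjusted p = 0.00697) for P311-/- over young wild type.

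Of the reads on mt-Nd3 and Gm28438 together, mt-Nd3 held 80.0, 87.4 and 94.0% in young wild type, 75.0, 76.4 and 91.9% in old wild type and 26.2, 17.5 and 14.6% in P311-/-. Every P311-/- library lay below every wild-type one, and the widest 95% exact binomial interval was 7.06 percentage points. When both rows were counted together, the pair stood at 98.7, 105 and 260.3 FPKM of mt-Nd3 length in young wild type, 211, 578 and 1242 in old wild type and 170.2, 293 and 197 in P311-/-. P311-/- then overlapped both wild-type groups. The log2 fold change of the pair was -1.31 (SE 0.59, adjusted p = 0.312) against old wild type and 0.62 (SE 0.59, adjusted p = 0.563) against young wild type, where mt-Nd3 alone had -1.58. Which base the reads carry at the differing position, and so whether the P311-/- mice carry another mitochondrial haplotype than the wild-type mice, was not tested, and the strain of the mice is not given.

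The other pairs showed no such split by group. Of the reads of its pair mt-Co2 held 53.8% to 66.1% in young wild type. In old wild type it held 59.2% to 72.0%, and P311-/- libraries had 67.7% to 72.6%. In the same order mt-Co3 held 44.8% to 83.4%, 50.2% to 83.8% and 70.7% to 74.8%, and mt-Atp6 held 46.7% to 86.7%, 46.5% to 77.6% and 50.9% to 76.9%. mt-Nd4l held 55.1% to 79.8%, 57.0% to 84.2% and 50.4% to 63.8%. In these 4 pairs the ranges of the 3 groups overlapped, except that mt-Co2 in P311-/- lay above young wild type. mt-Co1 and mt-Nd4, whose copies cover only part of the gene, held at least 98.9% of the reads of their pairs in all 9 libraries.

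**Figure D5:**
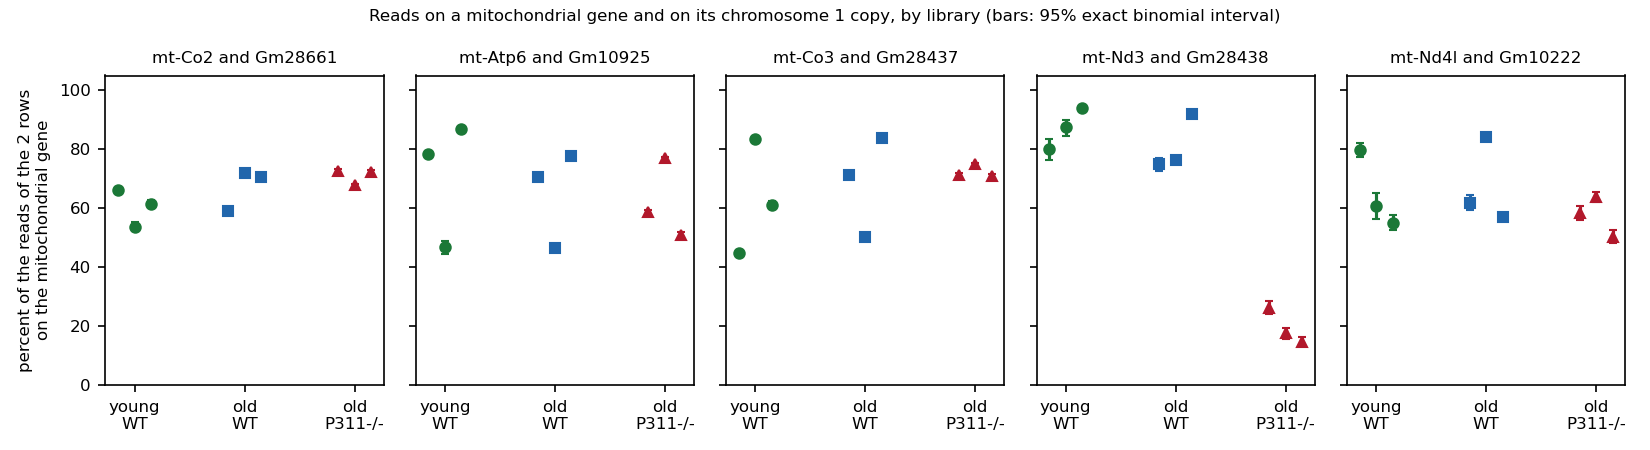
Percent of the reads of each pair that lay on the mitochondrial gene rather than on its chromosome 1 copy, by library, for 5 genes copied over nearly their whole length (linear axis from 0; bars are 95% exact binomial intervals, often smaller than the symbols). Only the pair of mt-Nd3 and Gm28438 separates P311-/-, at 14.6% to 26.2%, from all wild-type libraries, at 75.0% to 94.0%.

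Genes with a chromosome 1 copy over nearly their whole length varied widely between replicates. The coefficient of variation within a group was 27.7% to 105% for mt-Co2, mt-Atp6, mt-Co3, mt-Nd3 and mt-Nd4l, and 11.1% to 34.6% for mt-Co1 and mt-Nd4. mt-Co1 also has a less similar copy over nearly its whole length on chromosome 2 (Gm13340), and mt-Cytb and mt-Nd6 have such copies on chromosome 4 (Gm11410 and Gm11408), at 97.6%, 92.9% and 93.6% identity. For the 6 protein genes with no chromosome 1 copy matched over more than a shared end the coefficient was 6.27% to 70.3%, with the highest value in mt-Atp8, which has few reads. Only annotated transcripts were searched, so a copy of mt-Atp8 in the 233 bases at its place on chromosome 1 was not looked for. Counting members and copies together kept the age calls of mt-Co2 (2.0, adjusted p = 0.0308) and mt-Co3 (2.41, adjusted p = 0.0492). These sums, like that of mt-Nd3 above, hold only reads assigned to either row. They cannot show what reads left out for matching both places would add.

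Beside these 3 genes, P311-/- muscle had lower rRNA levels than old wild type without passing the test. mt-Rnr1 stood at 1118, 1337 and 962 FPKM in P311-/-, below every old wild-type library, with a log2 fold change of -1.09 (SE 0.21, adjusted p = 0.214). mt-Rnr2 stood at 1150.5, 1549 and 948 FPKM, also with no overlap, and a log2 fold change of -1.25 (SE 0.30, adjusted p = 0.242). Without P311-/- replicate 1, both passed (mt-Rnr1 -1.08, adjusted p = 0.0218; mt-Rnr2 -1.23, adjusted p = 0.0485), as they did with library quality weights (adjusted p = 0.000689 and 0.00370).

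The tRNA genes that rose with age were intermediate in P311-/-. mt-Tn stood at 1122, 848 and 389 FPKM, below every old and above every young wild-type library, and mt-Tc at 3659.7, 2777 and 1338 FPKM, likewise. Their log2 fold changes against old wild type were -1.58 (SE 0.50, adjusted p = 0.256) and -1.57 (SE 0.46, adjusted p = 0.253). mt-Tp stood at 2189.8, 2245 and 1577 FPKM, with -0.81 (SE 0.26, adjusted p = 0.258). All 3 passed with library quality weights (adjusted p = 0.0124, 0.0197 and 0.00688), and mt-Tc without P311-/- replicate 1 (adjusted p = 0.0480).

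The protein genes lay slightly below old wild type. All 13 log2 fold changes were below 0, from -3.41 in mt-Nd3 to -0.13 in mt-Nd5, with a median of -0.36 against -0.00386 for all genes tested, and 0 passed. mt-Co1 had -0.36 (SE 0.24, adjusted p = 0.468), mt-Cytb -0.32 (SE 0.23, adjusted p = 0.490) and mt-Co2 -0.80 (SE 0.41, adjusted p = 0.358). Except in mt-Nd3, the P311-/- libraries overlapped the old wild-type ones in each of these genes. With the trend of gene length and GC content removed, the median was 0.20 and 8 of the 13 lay above 0. mt-Nd5 and mt-Atp8 lay above 0 without old wild-type replicate 2 and mt-Nd2 and mt-Nd5 without P311-/- replicate 1, where the medians were -0.18 and -0.15.

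Leaving out P311-/- replicate 1, the library that stood apart, raised the calls from 1 to 6, which were mt-Tc, mt-Rnr2, mt-Rnr1, mt-Nd3, mt-Tg and mt-Tr, all lower in P311-/-. Over all 14233 genes tested the calls rose from 10 to 1875 in that fit, so the rise was not particular to mitochondrial genes. Leaving out P311-/- replicate 3 gave 2 calls and leaving out old wild-type replicate 2 gave 0, with 9 and 4 over all genes tested. That replicate had the highest mitochondrial share of reads, 17.6%.

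Old P311-/- was also set against young wild type, which shares its libraries with the comparisons above. Of 31 tested genes 2 fell, mt-Tg and mt-Tr, and 0 rose, where 0.246% of all genes tested fell and 0.4% were called in either direction. Every P311-/- library lay above every young one in 5 genes, against 11.6% of all genes, and below in 3, against 12%. The log2 fold change of mt-Tg was -6.74 (SE 0.70, adjusted p = 0.00697) and that of mt-Tr -3.83 (SE 0.59, adjusted p = 0.0388). The call of mt-Tg was lost without young replicate 3 (-6.88, adjusted p = 0.0501) and with the replicate block (-6.74, adjusted p = 0.0604), and that of mt-Tr without any one of young replicates 1, 2 and 3, old wild-type replicates 1, 2 and 3 or P311-/- replicate 2 (adjusted p = 0.0524 to 0.150). The call of mt-Tr was also lost with no filter on low values, with only the 6 libraries compared, with the length and GC trend removed and with the block (adjusted p = 0.0760, 0.0987, 0.0574 and 0.0757).

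On summed reads, the scaled ratio of P311-/- to young wild type was 0.00956 for mt-Tg (95% counting interval 0.00115 to 0.0352) and 0.105 for mt-Tr (0.0591 to 0.176). mt-Tn had 2.41 (SE 0.50, adjusted p = 0.0663), mt-Tc 1.76 (SE 0.46, adjusted p = 0.111) and mt-Co2 1.36 (SE 0.41, adjusted p = 0.130). mt-Rnr1 and mt-Rnr2 differed little in estimate, at -0.27 (SE 0.21, adjusted p = 0.490) and -0.05 (SE 0.30, adjusted p = 0.937). The 13 protein genes had a median of 0.50, against 0.01 for all genes tested, with mt-Nd3 alone below 0. This count depended on single libraries, since 5 of the 13 (mt-Co1, mt-Nd5, mt-Atp6, mt-Nd4l and mt-Nd3) lay below 0 without P311-/- replicate 2. Without young replicate 2 (mt-Atp6, mt-Nd4l and mt-Nd3) and with library quality weights (mt-Atp6, mt-Nd3 and mt-Atp8) 3 lay below 0. Without P311-/- replicate 1 there were 9 calls in place of 2, of which 7 were higher and 2 lower in P311-/-. Without young replicate 3 there were 0. Over all genes tested these 2 fits had 2785 and 4 calls, against 57 in the main fit.

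Nuclear genes that act on this genome were read from the same fit, in which 3.39% of all genes tested rose and 2.01% fell in old wild type. Of 18 genes for transcription and replication, 3 rose in old wild type, with a median of 0.42 over the list. These were Tfam, the factor that packages the genome and starts transcription, at 9.95 ± 0.792 FPKM in young and 13.9 ± 0.639 FPKM in old wild type (SD, n = 3) with a log2 fold change of 0.49 (SE 0.11, adjusted p = 0.0399), Ssbp1, which coats single-stranded DNA during replication, with 0.96 (SE 0.20, adjusted p = 0.0362), and Mterf2 with 0.76 (SE 0.17, adjusted p = 0.0381). Of 38 genes for modifying and charging tRNAs, 2 rose and 0 fell, near the 5.4% of all genes called in either direction. Trnt1, which adds the CCA end to tRNAs, had 0.65 (SE 0.11, adjusted p = 0.0307), and Osgepl1, which modifies an adenosine beside the anticodon, had 0.79 (SE 0.18, adjusted p = 0.0409).

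Of 20 genes for processing and stability of mitochondrial RNA, 0 passed, with a median of 0.09. The smallest p-values belonged to Fastkd2, an RNA-binding protein of mitochondrial granules, with 0.62 (SE 0.16, adjusted p = 0.0551), and to Trmt10c, a subunit of the enzyme that cuts the 5′ ends of tRNAs, with 0.44 (SE 0.13, adjusted p = 0.0707). An unadjusted p under 0.05 was found for 6 of the 20, near the 26.3% of all genes. Of 12 regulators of mitochondrial biogenesis, 1 fell, where 2.01% of all genes tested fell. It was Ppargc1b, a coactivator, at 5.69 ± 0.585 FPKM in young and 2.28 ± 0.265 FPKM in old wild type and a log2 fold change of -1.28 (SE 0.16, adjusted p = 0.0246).

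Of the nuclear subunits of the same complexes, 15 of 75 rose in old wild type and 0 fell, against 3.39% and 2.01% of all genes tested. For complex I 7 of 36 rose and 0 fell, with all 36 estimates above 0 and a median of 0.51, against 0.83 for the 13 mitochondrial protein genes. Ndufa5 had 1.02 (SE 0.20, adjusted p = 0.0308), Ndufs4 0.93 (SE 0.18, adjusted p = 0.0308), Ndufc2 0.85 (SE 0.15, adjusted p = 0.0307) and Ndufa6 0.76 (SE 0.16, adjusted p = 0.0354). For complex III 1 of 9 rose, Uqcrb, with 1.03 (SE 0.20, adjusted p = 0.0329). For complex IV 4 of 14 rose, the first of them Cox7b, at 277 ± 49.4 FPKM in young and 602 ± 77.5 FPKM in old wild type, with 1.13 (SE 0.22, adjusted p = 0.0330). Cox6c had 1.03 (SE 0.22, adjusted p = 0.0359), Ndufa4 0.92 (SE 0.22, adjusted p = 0.0471) and Cox7a2 0.88 (SE 0.22, adjusted p = 0.0498), and 2 of the 14 estimates lay below 0. For the ATP synthase 3 of 16 rose, Atp5j, Atp5l and Atp5f1, with log2 fold changes of 0.77, 0.94 and 0.65.

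These nuclear calls rested on single libraries and on the scaling. All 15 calls of subunits and the 6 calls of the 4 lists before them were lost without young replicate 1, 2 or 3, without old wild-type replicate 2 or 3, with no filter on low values, with the length and GC trend removed and with the replicate block. Over all genes tested, these settings had 14, 1, 0, 0, 10, 5, 12 and 0 calls in the same order, against 768 in the main fit. The loss was thus not particular to these lists. With scaling by total reads 0 of the 75 subunits and 2 of the 88 members of the other lists were called, and with library quality weights 41 and 16. Over all 14233 genes tested, 346 and 3001 were called in these 2 settings. With library quality weights the share of the 88 members was below that of all genes.

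Between P311-/- and old wild type, 0 members of any of these lists passed. Without P311-/- replicate 1, 17 of the 75 subunits and 4 of the 88 members of the other 4 lists did. In that fit 1875 of all 14233 genes tested were called, a larger share than that of the 88 members. In limma, an unadjusted p under 0.05 was found for 5 of 18 genes for transcription and replication, 3 of 20 for RNA processing, 6 of 38 for tRNA modification and charging and 2 of 12 regulators, against 16.1% of all genes tested. The last 3 of these shares are near that of all genes. Among nuclear subunits, 18 of 36 complex I genes, 6 of 9 complex III genes, 8 of 14 complex IV genes and 8 of 16 ATP synthase genes had one. Their medians were -0.38, -0.45, -0.54 and -0.40, beside -0.36 for the mitochondrial protein genes. Against young wild type 0 subunits passed as well, with medians in the fit of all libraries of 0.13, 0.07, 0.06 and 0.11. Without P311-/- replicate 1, 6 passed, where 2785 of all 14233 genes tested were called. Of the 10 listed nuclear copies of mitochondrial sequence, 4 rose in old wild type, against 3.39% of all genes tested. These were Gm28438, Gm28661, Gm10925 and Gm10221, with log2 fold changes of 2.49, 1.72, 2.75 and 1.21. In P311-/- over young wild type 1 of the 10 rose, Gm28438, against 0.155% of all genes tested. The 4 calls of copies were lost in each alternative that ended both sets of nuclear calls above, where at most 14 of all genes tested were called. That of Gm28438 over young wild type was lost without young replicate 3, where 4 of all genes tested were called.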

How the data were processed

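The deposited table gave FPKM for 54532 genes in 9 libraries of poly(A) RNA, per the labels' protocols. The tools named are DESeq2 1.42.0, HISAT2 2.2.1 and featureCounts 2.1.1, with the build mm39, per the submitters' processing notes. No source used here states the options for strand or for reads with several matches. Gene positions matched GENCODE M21 (GRCm38) for 98.3% of shared identifiers and all 37 mitochondrial genes. FPKM times gene length gave whole multiples of 1 constant per library for 100% of values (tolerance 0.001), and these recovered reads served for shares, intervals, filters and voom, with intervals covering counting error only. Lengths, in bases, are those the authors deposited.

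The test was limma 3.58.1 (R 4.3.3; trend, robust) on log2(FPKM + 0.1), which understates changes of low genes, over 14233 genes with at least 0.5 FPKM and at least 10 reads in at least 3 libraries. All 9 libraries entered 1 fit of group means, fold changes are first over second group, and Benjamini-Hochberg adjusted p under 0.05 was a call. The fit was tested on simulated data. Same-numbered libraries did not deviate together (correlations -0.10 to 0.15, 1 of 9 above 0.1), so numbers were not taken as pairs.

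Nuclear copies were matched to mitochondrial genes by transcript sequence at 90% identity or more, and Gm10221 of the list had no such match. All 37 genes could be named. Of each nuclear list, called genes up to 4 by smallest p were named, otherwise the 2 of smallest p. Other list members are named only in counts. The genes and lists were chosen with earlier results of these data known. Counting a gene with its chromosome 1 copy was chosen after the values were seen.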

Additional observations from a re-analysis of the deposited data

How the results depend on the processing

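With 3 libraries a group, the number of calls was unstable while most directions held. For old over young wild type the 5 calls became 0 with no filter on low values, 15 with voom and library quality weights, 13 with only the 6 libraries compared, 2 with the gene length and GC trend removed, and 0 to 10 in leave-one-out fits. The median of the 13 protein genes was 0.094 with that trend removed and 0.65 to 0.97 in leave-one-out fits. For P311-/- over old wild type the 1 call became 2 with a pseudocount of 1 FPKM, 0 with voom, 11 with quality weights (1 higher and 10 lower) and 0 to 6 in leave-one-out fits. The median was 0.20 with the trend removed and -0.59 to -0.15 in leave-one-out fits. For P311-/- over young wild type the 2 calls became 1 with no filter or with only 6 libraries, 9 with quality weights and 0 to 9 in leave-one-out fits (median 0.16 to 0.66). The 9 with quality weights and the 9 without P311-/- replicate 1 were each 7 higher and 2 lower. With the trend removed the 2 were mt-Tg, lower, and mt-Tn, higher. Calls over all 14233 genes tested moved as well. In the same order of comparisons, 768, 10 and 57 became 3001, 4211 and 4422 with quality weights. Without P311-/- replicate 1 they became 1755, 1875 and 2785. For old over young wild type, calls over all genes tested became 5 with no filter and 12 with the trend removed. They became 0 to 14 without 1 young replicate or without old wild-type replicate 2 or 3.

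With the replicate number as a block, which the data did not show to pair libraries, there were 0 calls among mitochondrial genes in each comparison, with 19, 9 and 9 genes at an unadjusted p under 0.05. Over all genes tested there were 0, 4 and 5 calls.

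Signs turned with the gene length and GC trend removed in old over young wild type for mt-Co1 (-0.015), mt-Nd5 (-0.33), mt-Nd6 (-0.22), mt-Tg (-0.42) and mt-Tr (-0.78), and in P311-/- over old wild type for 8 of the 13 protein genes, mt-Co1 (0.10) among them. In P311-/- over young wild type, mt-Rnr2 was 0.05 without young replicate 1 and 0.11 without P311-/- replicate 3, within a leave-one-out range of -0.24 to 0.11, and mt-Nd3 was 0.62 when counted with its copy. There, 5 of the 13 protein genes lay below 0 without P311-/- replicate 2, and 3 without young replicate 2 or with quality weights, in place of 1. None of these passed the test, and the cause was not tested. Scaling by total reads moved the median of all genes by -0.13 for old over young and -0.14 for P311-/- over young wild type, and by reads outside the mitochondrial genome by -0.12 for the latter. The mean mitochondrial share of reads changed by less than 1 SD with ribosomal RNA genes left out. For tRNA genes, depth limits any value under 3.36 FPKM.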
